A study of Mus musculus with 8 samples.

Results

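The TNF superfamily ligands followed here are the 9 genes Tnf, Lta, Ltb, Fasl, Tnfsf10, Cd40lg, Tnfsf8, Tnfsf11 and Tnfsf14, found by their symbols among the 24976 genes of a bulk RNA-seq count table. All 9 were in the table, and 9 of 9 passed the filter on low counts, which kept 13073 genes. The table covers CD8 T cells recovered from B16-OVA tumours, which grow from a mouse melanoma line that makes the model antigen ovalbumin. Tumour cells had been placed under the skin of Rag2-/- mice, hosts that lack T and B cells, and donor CD8 T cells followed 10 days later. After a further 10 days the infiltrating CD3e+CD8+ cells were sorted by 2 inhibitory receptors, PD1 and Tim3. The 4 groups were dKO PD1+Tim3+, WT PD1+Tim3+, dKO PD1+Tim3- and WT PD1+Tim3-, each with 2 libraries, where a sample was the sorted cells of an implanted mouse.

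By their labels the dKO donors were Cd8Cre, homozygous for floxed Nr4a1 and Nr4a2, and heterozygous for the OT-I transgene, which encodes a T cell receptor for ovalbumin. Whether the WT donors were OT-I transgenic, which exons are floxed, and the age and sex of donors and hosts was not given in the sources used here. Nr4a1, a target of the deletion, did not follow the label. It had 1194 and 1175 CPM (counts scaled to library size) in dKO PD1+Tim3+ libraries against 803 and 789 CPM in WT PD1+Tim3+ libraries, and 1331 and 1489 CPM in dKO PD1+Tim3- libraries against 979 and 824 CPM in WT PD1+Tim3- libraries. Nr4a2, the other target, lay between 929 and 1034 CPM in all 8 libraries. Counts over a whole gene do not check the deletion of unnamed exons. All directions by genotype thus follow the labels alone, and dKO and WT libraries stand for libraries labelled dKO and labelled WT.

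Total counts ran from 1944999 in dKO PD1+Tim3- replicate 2, which also stood apart on the second principal component, to 13418762 in WT PD1+Tim3+ replicate 2. The 7 CD8 T cell markers with counts summed to 3015 to 3978 CPM per library, and Cd4 had at most 1 count in a library. Macrophage and monocyte markers summed to 12.1 to 26.4 CPM and B16 melanoma markers to 18.04 to 22.2 CPM. Most of the melanoma sum was Tyr, at 14.5 to 17.1 CPM, while Mlana, Tyrp1, Dct and Sox10 each had at most 1.04 CPM. Havcr2, which encodes Tim3, had 56.6 and 58.2 CPM in dKO PD1+Tim3+ and 41.8 and 43.6 CPM in WT PD1+Tim3+ libraries, against 3.62 and 3.15 CPM in dKO PD1+Tim3- and 3.55 and 2.28 CPM in WT PD1+Tim3- libraries, as the sort fixed. In bulk libraries, fewer cells that make a transcript and less transcript per cell cannot be told apart.

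TNF superfamily ligands are trimeric proteins that mostly sit in the cell membrane, and some are also cut off and act at a distance. Each binds receptors of a matching family, which recruit either adaptors that start NF-kappaB signalling or death-domain proteins that start apoptosis. In CD8 T cells they are known as killing molecules (TNF, Fas ligand, TRAIL) and as signals to antigen-presenting, stromal and other lymphoid cells (lymphotoxins, LIGHT, CD40 ligand, CD30 ligand, RANKL). Many of these genes are switched on by T cell receptor signals acting through NFAT, AP-1 and NF-kappaB factors, and Nr4a proteins are nuclear receptors induced by the same signals.

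Tnf, Lta and Ltb lie together on mouse chromosome 17, in the order Ltb, Tnf, Lta, over 10913 bases of GRCm38. Ltb (35194439 to 35196320, plus strand) ends 3060 bases from Tnf (35199381 to 35202007, minus strand), and Lta (35203165 to 35205351, minus strand) lies another 1157 bases on. Tnfsf14 (57189492 to 57194177, minus strand) is on the same chromosome but far from them. Fasl lies on chromosome 1 (161780689 to 161788495, minus strand), Tnfsf10 on chromosome 3 (27317028 to 27342427, plus strand) and Cd40lg on chromosome X (57212143 to 57224042, plus strand). Tnfsf8 lies on chromosome 4 (63831308 to 63861347, minus strand) and Tnfsf11 on chromosome 14 (78277445 to 78308043, minus strand). The annotation places miRNA genes inside Lta and Ltb, on the same strand and outside their exons, and no other gene across a member.

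The DNA just before the start of 5 members is shown, for the clustered genes and for Fasl and Tnfsf10, which were called between the sorted populations in both genotypes under every alternative run. Sequences are from RefSeq promoter windows on GRCm38.p6, read 5′ to 3′ on the gene's strand. They cover the 250 bases before the start, or fewer where the annotated gene begins earlier. Capitals mark GGAAA, the core of NFAT sites, on either strand (TTTCC on the printed strand), and in Ltb also a kappaB consensus that begins with that core.
Tnf promoter, chr17:35202008-35202257, minus strand: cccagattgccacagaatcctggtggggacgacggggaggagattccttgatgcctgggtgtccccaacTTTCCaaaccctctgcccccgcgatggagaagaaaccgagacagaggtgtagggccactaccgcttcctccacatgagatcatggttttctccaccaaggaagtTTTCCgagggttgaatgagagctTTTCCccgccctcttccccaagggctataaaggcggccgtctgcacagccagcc
Lta promoter, chr17:35205352-35205601, minus strand: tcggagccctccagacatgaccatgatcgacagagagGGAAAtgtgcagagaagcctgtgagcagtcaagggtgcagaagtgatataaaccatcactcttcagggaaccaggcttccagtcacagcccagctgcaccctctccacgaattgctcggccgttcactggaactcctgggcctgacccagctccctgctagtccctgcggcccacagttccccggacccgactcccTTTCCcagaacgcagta
Ltb promoter, chr17:35194257-35194438, plus strand: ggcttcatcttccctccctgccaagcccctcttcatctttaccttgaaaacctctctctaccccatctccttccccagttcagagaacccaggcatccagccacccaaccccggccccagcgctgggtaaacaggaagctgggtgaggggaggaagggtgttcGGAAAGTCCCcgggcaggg
Fasl promoter, chr1:161788496-161788745, minus strand: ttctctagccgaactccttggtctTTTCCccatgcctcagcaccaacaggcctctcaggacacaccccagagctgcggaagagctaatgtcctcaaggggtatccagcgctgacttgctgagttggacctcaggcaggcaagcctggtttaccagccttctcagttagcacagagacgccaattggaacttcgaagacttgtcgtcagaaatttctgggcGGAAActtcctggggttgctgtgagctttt
Tnfsf10 promoter, chr3:27316827-27317027, plus strand: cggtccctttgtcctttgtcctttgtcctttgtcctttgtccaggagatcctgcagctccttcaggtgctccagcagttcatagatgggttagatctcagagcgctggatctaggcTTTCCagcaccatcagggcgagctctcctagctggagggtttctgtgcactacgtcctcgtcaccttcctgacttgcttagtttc
Such a window was found for 8 of the 9 members, all but Cd40lg. GGAAA occurred in 8 of the 8 windows, but it is short and occurred in 55.6% of 32851 promoter windows of the same length. In Tnf it lay 181 to 177, 77 to 73 and 54 to 50 bases before the start. The NBRE, AAAGGTCA, which Nr4a monomers are known to bind, occurred in 0 of 8 windows, against 1.34% of all windows, and the CRE, TGACGTCA, in 0 of 8, against 1.55%. An AP-1 site, TGANTCA, occurred in Tnfsf14 alone, against 6.75% of all windows, and the kappaB consensus in Ltb alone, against 3.9%. All motifs were searched on both strands, and a match or its absence in these windows is a description of the letters only.

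Tnf encodes the cytokine TNF, which kills or inflames through TNF receptor 1 and acts on lymphocytes through TNF receptor 2. It had 64.0 and 61.3 CPM in dKO PD1+Tim3+ libraries against 39.8 and 38.3 CPM in WT PD1+Tim3+ libraries. It had 44.3 and 44.1 CPM in dKO PD1+Tim3- libraries against 22.7 and 27.4 CPM in WT PD1+Tim3- libraries. Both dKO libraries were above both WT libraries in each population, and the dKO PD1+Tim3- libraries were also above the WT PD1+Tim3+ ones. Among PD1+Tim3+ cells Tnf rose in dKO over WT libraries, by 0.69 ± 0.11 on the log2 scale (SE, 1.61-fold, adjusted p = 0.0208, edgeR). Among PD1+Tim3- cells its log2 fold change was 0.83 ± 0.13 and missed the threshold at an adjusted p of 0.0705 (unadjusted 4.31e-05, rank 8 of 13073 genes). The change of fold between populations, the interaction, was -0.15 ± 0.17 (adjusted p = 0.824).

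The settings that ended the PD1+Tim3+ call for Tnf, with the same direction in each, include another tool, a smaller fit and left-out libraries. Its adjusted p was 0.0639 by DESeq2, 0.0560 in a fit of the 4 PD1+Tim3+ libraries alone, 0.188 and 0.318 without WT PD1+Tim3+ replicate 1 and 2, and 0.0511 and 0.0542 without dKO PD1+Tim3- replicate 1 and 2. The PD1+Tim3- difference was called with a robust spread estimate (0.0169), with no filter on low counts (3.18e-04) and without dKO PD1+Tim3+ replicate 1 or 2 (0.0339 and 0.0333). Macrophages also make TNF, and 9 of their 10 listed marker genes had counts, which summed to 21.8 to 22.2 CPM in dKO PD1+Tim3+, 21.3 to 22.7 CPM in WT PD1+Tim3+, 12.1 to 26.4 CPM in dKO PD1+Tim3- and 20.9 to 25.5 CPM in WT PD1+Tim3- libraries. These ranges overlapped between genotypes, and the part of such cells in the Tnf differences was not tested.

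Tnf was also higher in PD1+Tim3+ than in PD1+Tim3- libraries of the same genotype. The log2 fold change was 0.50 ± 0.12 (adjusted p = 0.0262) among dKO libraries and 0.65 ± 0.12 (adjusted p = 0.00526) among WT libraries. The dKO call ended without dKO PD1+Tim3- replicate 1 (0.162) or 2 (0.119), without WT PD1+Tim3+ replicate 1 (0.0563) or 2 (0.0558), without dKO PD1+Tim3+ replicate 1 (0.0729) and by DESeq2 (0.153). The WT call ended without WT PD1+Tim3- replicate 1 (0.0812) or WT PD1+Tim3+ replicate 1 (0.0525).

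**Figure D1:**
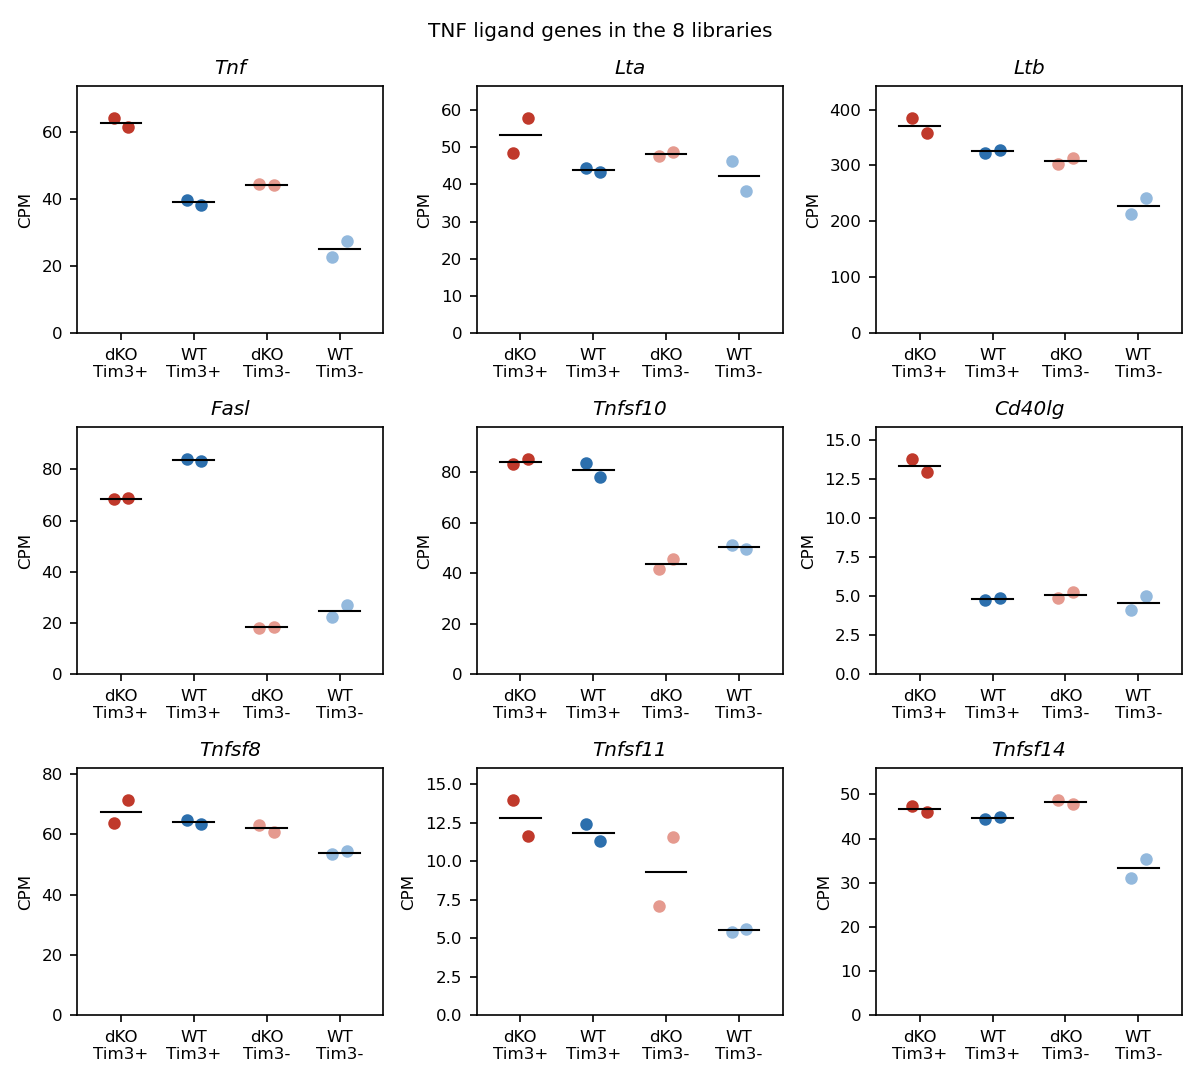
CPM of each of the 9 ligand genes in every library, with a point per library and a line at the group mean, grouped by labelled genotype and sorted population. Both dKO points for Tnf lie above both WT points in each population, the dKO PD1+Tim3+ points for Cd40lg at 13.8 and 12.9 CPM stand apart from all others, and the PD1+Tim3+ points for Fasl and Tnfsf10 lie above every PD1+Tim3- point.

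The plot of CPM by library also shows Lta and Ltb, the neighbours of Tnf, for which no genotype difference was called. Lta encodes lymphotoxin alpha, which binds the TNF receptors as a secreted trimer and joins lymphotoxin beta on the membrane. It had 48.6 and 57.8 CPM in dKO PD1+Tim3+ libraries against 44.6 and 43.3 CPM in WT PD1+Tim3+ libraries. Among PD1+Tim3- cells it had 47.6 and 48.8 CPM in dKO against 46.2 and 38.4 CPM in WT libraries. The dKO libraries were above the WT ones in each population by small margins, and neither difference passed the test, with log2 fold changes of 0.28 ± 0.12 (adjusted p = 0.397) in PD1+Tim3+ and 0.18 ± 0.13 (adjusted p = 0.778) in PD1+Tim3- cells. Its population differences were 0.15 ± 0.13 (adjusted p = 0.560) in dKO and 0.05 ± 0.12 (adjusted p = 0.836) in WT libraries, and the groups overlapped in both.

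Ltb encodes lymphotoxin beta, the membrane anchor of the heterotrimer that signals through the lymphotoxin beta receptor on stromal and myeloid cells. Its libraries had 385 and 358 CPM in dKO PD1+Tim3+ against 322 and 328 CPM in WT PD1+Tim3+, and 303 and 313 CPM in dKO PD1+Tim3- against 214 and 242 CPM in WT PD1+Tim3-. As for Tnf, the dKO libraries were above the WT ones in each population without overlap, but the genotype differences did not pass the test, at 0.19 ± 0.11 (adjusted p = 0.557) in PD1+Tim3+ and 0.44 ± 0.12 (adjusted p = 0.364) in PD1+Tim3- cells. Ltb rose in WT PD1+Tim3+ over WT PD1+Tim3- libraries, by 0.52 ± 0.12 on the log2 scale (1.43-fold, adjusted p = 0.0116). That call ended without WT PD1+Tim3- replicate 1 (0.105) or WT PD1+Tim3+ replicate 1 (0.0883) or 2 (0.0965). In dKO libraries the same difference was 0.27 ± 0.12 (adjusted p = 0.183). The 8 dendritic cell markers, all with counts, summed to 52.6 to 58.1 CPM in dKO PD1+Tim3+ and 56.4 to 59.7 CPM in WT PD1+Tim3+ libraries, against 35.7 CPM in dKO PD1+Tim3- and 26.9 to 32.7 CPM in WT PD1+Tim3- libraries, with most of it from Itgax, at 22.2 to 49.3 CPM over the 8 libraries. H2-Ab1 had 6.80 and 4.21 CPM in WT PD1+Tim3+ against 0.995 and 0.415 CPM in WT PD1+Tim3- libraries. In dKO it had 1.86 and 2.77 CPM in PD1+Tim3+ against 1.45 and 1.05 CPM in PD1+Tim3- libraries. Of the 4 dendritic cell markers that passed the filter, 2 rose and 0 fell in WT PD1+Tim3+ cells, where 8.25% of all tested genes rose. The part of dendritic cells in the population differences was not tested.

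Fasl and Tnfsf10 encode the death ligands Fas ligand and TRAIL, which engage death receptors on target cells. Fasl had 68.5 and 68.7 CPM in dKO PD1+Tim3+ libraries against 18.1 and 18.4 CPM in dKO PD1+Tim3- libraries. In WT it had 84.0 and 83.2 CPM in PD1+Tim3+ against 22.5 and 26.9 CPM in PD1+Tim3- libraries. Every PD1+Tim3+ library was far above every PD1+Tim3- library. Fasl rose by 1.91 ± 0.13 on the log2 scale in dKO (3.77-fold, adjusted p = 1.73e-05) and by 1.77 ± 0.11 in WT (3.41-fold, adjusted p = 1.31e-05), and kept both calls under every alternative run. Unlike Tnf, its level was lower in both dKO groups than in the WT group of the same population, without overlap, but the genotype differences of -0.28 ± 0.10 (adjusted p = 0.287) in PD1+Tim3+ and -0.43 ± 0.14 (adjusted p = 0.482) in PD1+Tim3- cells did not pass the test.

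Tnfsf10 had 83.2 and 85.2 CPM in dKO PD1+Tim3+ libraries against 41.8 and 45.7 CPM in dKO PD1+Tim3- libraries, and 83.8 and 78.3 CPM in WT PD1+Tim3+ against 51.2 and 49.8 CPM in WT PD1+Tim3- libraries. The populations did not overlap in either genotype. The gene rose in PD1+Tim3+ cells by 0.96 ± 0.11 on the log2 scale in dKO (1.94-fold, adjusted p = 5.43e-04) and by 0.68 ± 0.10 in WT (1.60-fold, adjusted p = 0.00232), and kept both calls under every alternative run. Its genotype difference was 0.06 ± 0.10 (adjusted p = 0.891) in PD1+Tim3+ libraries, which overlapped, and -0.22 ± 0.11 (adjusted p = 0.640) in PD1+Tim3- libraries. NK cells also carry both death ligands. All 5 of their listed marker genes had counts and summed to 16.9 to 18.5 CPM in dKO PD1+Tim3+ and 19.0 to 20.6 CPM in WT PD1+Tim3+ libraries, against 7.35 to 7.96 CPM in dKO PD1+Tim3- and 7.25 to 10.4 CPM in WT PD1+Tim3- libraries. Klrb1c and the granzyme gene Gzmc made up most of the sum. Klrb1c rose in WT, with 14.3 and 12.1 CPM in PD1+Tim3+ against 5.97 and 7.26 CPM in PD1+Tim3- libraries. In dKO it had 7.07 and 8.87 CPM in PD1+Tim3+ against 6.33 and 6.82 CPM in PD1+Tim3- libraries. Gzmc rose in PD1+Tim3+ cells of both genotypes, with 9.49 and 9.24 CPM in dKO PD1+Tim3+ against 1.27 and 0.525 CPM in dKO PD1+Tim3- libraries, and 5.95 and 6.28 CPM in WT PD1+Tim3+ against 1.28 and 3.11 CPM in WT PD1+Tim3- libraries. Ncr1, which defines NK cells in mice, had 3 counts in WT PD1+Tim3+ replicate 2 and 0 in the other 7 libraries. The part of such cells in the Fasl and Tnfsf10 differences was not tested.

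Cd40lg encodes CD40 ligand, a helper signal to antigen-presenting cells and B cells that is best known from CD4 T cells. It had 13.8 and 12.9 CPM in dKO PD1+Tim3+ libraries (74 and 70 counts), against 4.76 and 4.86 CPM in WT PD1+Tim3+ libraries (28 and 68 counts). In dKO PD1+Tim3- libraries it had 4.89 and 5.25 CPM (27 and 10 counts), against 4.12 and 4.98 CPM in WT PD1+Tim3- libraries (29 and 24 counts). The dKO PD1+Tim3+ libraries alone were high, and the other 6 libraries lay in a narrow low range. Among PD1+Tim3+ cells Cd40lg rose in dKO over WT libraries, by 1.47 ± 0.20 on the log2 scale (2.76-fold, adjusted p = 0.00943). It also rose in dKO PD1+Tim3+ over dKO PD1+Tim3- libraries, by 1.42 ± 0.24 (2.67-fold, adjusted p = 0.00624). The first call ended without WT PD1+Tim3+ replicate 1 (0.0740) or 2 (0.174), and the second without dKO PD1+Tim3- replicate 1 (0.105), which leaves the library with 10 counts.

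In PD1+Tim3- cells the genotype difference for Cd40lg was 0.15 ± 0.28 (adjusted p = 0.920), and in WT libraries the population difference was 0.10 ± 0.23 (adjusted p = 0.799). The interaction was 1.31 ± 0.34 (unadjusted p = 0.00259), and did not pass after adjustment (0.236), so a difference between populations in the genotype effect was not established. The 5 markers of CD4 and regulatory T cells summed to 24.2 to 30.7 CPM in dKO PD1+Tim3+ and 27.9 to 31.3 CPM in WT PD1+Tim3+ libraries, against 15.02 to 17.8 CPM in dKO PD1+Tim3- and 14.9 to 18.2 CPM in WT PD1+Tim3- libraries. Zbtb7b made up most of each sum, at 9.05 to 24.9 CPM over the 8 libraries. Ikzf4 had 3.35 to 6.63 CPM, Foxp3 at most 2.55 CPM and Il4 at most 1.05 CPM. Cd4 itself had 0 counts in all 4 PD1+Tim3+ libraries. The part of such cells in the Cd40lg differences was not tested. Cd40lg is X-linked, and the sex-linked genes Xist and Ddx3y differed without overlap between the genotype labels. Xist had 679 and 671 CPM in dKO PD1+Tim3+ against 910 and 922 CPM in WT PD1+Tim3+, and 690 and 684 CPM in dKO PD1+Tim3- against 955 and 854 CPM in WT PD1+Tim3- libraries. The Y-linked gene Ddx3y had 56.8 and 58.0 CPM in dKO PD1+Tim3+ against 19.7 and 18.9 CPM in WT PD1+Tim3+, and 49.8 and 48.8 CPM in dKO PD1+Tim3- against 31.4 and 24.9 CPM in WT PD1+Tim3- libraries. Every library held both. Sex-linked differences went with the genotype label in each population. Their part in the genotype differences of Cd40lg, Tnf or any other ligand was not tested and cannot be told apart from the label.

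Tnfsf14 encodes LIGHT, which binds HVEM on lymphocytes and the lymphotoxin beta receptor. It had 47.5 and 46.0 CPM in dKO PD1+Tim3+ against 44.4 and 44.9 CPM in WT PD1+Tim3+ libraries, and 48.7 and 47.8 CPM in dKO PD1+Tim3- against 31.1 and 35.4 CPM in WT PD1+Tim3- libraries. The WT PD1+Tim3- libraries were low and the other 3 groups lay close together. Tnfsf14 rose in WT PD1+Tim3+ over WT PD1+Tim3- libraries, by 0.43 ± 0.11 on the log2 scale (1.35-fold, adjusted p = 0.0192), and was -0.05 ± 0.11 (adjusted p = 0.855) in dKO libraries. That WT call ended without WT PD1+Tim3- replicate 1 (0.216), without WT PD1+Tim3+ replicate 1 (0.0988) or 2 (0.128) and by DESeq2 (0.213). Its genotype differences were 0.06 ± 0.10 (adjusted p = 0.884) in PD1+Tim3+ and 0.54 ± 0.12 (adjusted p = 0.157) in PD1+Tim3- cells.

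Tnfsf11 encodes RANKL, which acts on osteoclast precursors and dendritic cells. It had 14.0 and 11.6 CPM in dKO PD1+Tim3+ against 12.4 and 11.3 CPM in WT PD1+Tim3+ libraries, and 7.06 and 11.5 CPM in dKO PD1+Tim3- against 5.40 and 5.60 CPM in WT PD1+Tim3- libraries. The WT PD1+Tim3- libraries were again lowest, and the dKO PD1+Tim3- libraries differed most from each other. Tnfsf11 rose in WT PD1+Tim3+ over WT PD1+Tim3- libraries, by 1.09 ± 0.23 on the log2 scale (2.13-fold, adjusted p = 0.00859). That call ended without WT PD1+Tim3- replicate 1 (0.0835) or WT PD1+Tim3+ replicate 1 (0.0642) or 2 (0.0529). In dKO libraries the difference was 0.60 ± 0.25 (adjusted p = 0.163). Its genotype differences were 0.13 ± 0.20 (adjusted p = 0.882) in PD1+Tim3+ and 0.62 ± 0.28 (adjusted p = 0.603) in PD1+Tim3- cells.

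Tnfsf8 encodes CD30 ligand, which signals to activated lymphocytes that carry CD30. It had 63.7 and 71.3 CPM in dKO PD1+Tim3+ against 64.8 and 63.6 CPM in WT PD1+Tim3+ libraries, and 63.2 and 60.9 CPM in dKO PD1+Tim3- against 53.5 and 54.3 CPM in WT PD1+Tim3- libraries. The WT PD1+Tim3- libraries were lowest, and the PD1+Tim3+ genotypes overlapped. No contrast was called for it, with population differences of 0.12 ± 0.11 (adjusted p = 0.570) in dKO and 0.25 ± 0.10 (adjusted p = 0.116) in WT libraries and genotype differences of 0.07 ± 0.10 (adjusted p = 0.858) in PD1+Tim3+ and 0.21 ± 0.11 (adjusted p = 0.657) in PD1+Tim3- cells.

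Counted over the family, 2 of 9 ligands rose and 0 fell in dKO over WT PD1+Tim3+ libraries (Tnf and Cd40lg), where 0.260% of all tested genes rose and 0.627% were called in either direction. The median log2 fold change of the 9 was 0.13, against 0.01 over all tested genes. Among PD1+Tim3- cells 0 of 9 ligands were called by edgeR, DESeq2 or limma-voom, where edgeR called 0.0459% of all tested genes. At an unadjusted p under 0.05 there were 5 ligands by edgeR, against 8.27% of all tested genes, and the median log2 fold change of the 9 was 0.21, against -0.01. The dKO and WT libraries did not overlap for 6 of 9 ligands in PD1+Tim3+ cells, where 41.4% of tested genes did not overlap, and for 8 of 9 in PD1+Tim3- cells, against 41.3%. The genotype difference had the same sign in both populations for 8 of 9 ligands, all but Tnfsf10, and for 46.7% of the 13073 tested genes. These 2 contrasts share no libraries, but the labels do not say whether they share mice or donors.

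**Figure D2:**
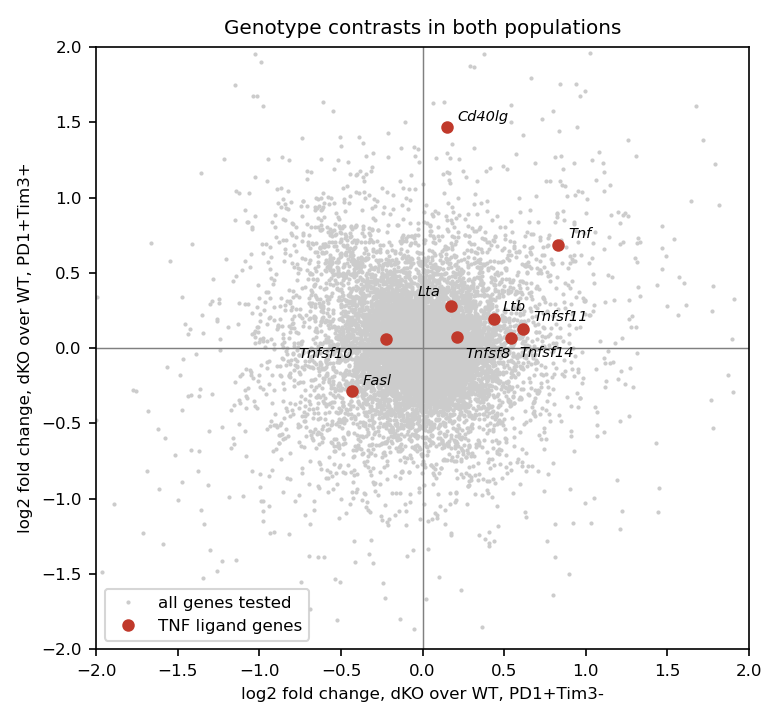
Log2 fold change of libraries labelled dKO over WT in PD1+Tim3+ (vertical) and in PD1+Tim3- cells (horizontal), a point per tested gene, with the 9 ligands named. In PD1+Tim3+ and PD1+Tim3- cells Tnf is at 0.69 and 0.83, Cd40lg at 1.47 and 0.15, and Fasl at -0.28 and -0.43. Axes stop at 2 on the log2 scale in either direction, which leaves out 31 genes and no ligand.

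The scatter of both genotype contrasts places Tnf and Ltb away from the origin in the same direction, Fasl in the opposite one, and Cd40lg near 0 in PD1+Tim3- cells. In dKO libraries 4 of 9 rose in PD1+Tim3+ cells and 0 fell (Fasl, Cd40lg, Tnfsf10, Tnf), against 5.21% of tested genes that rose and 9.93% called in either direction. In WT libraries 6 of 9 rose and 0 fell (Fasl, Tnfsf11, Tnfsf10, Tnf, Ltb, Tnfsf14), against 8.25% that rose and 17.0% called in either direction. The median log2 fold change of the 9 was 0.50 in dKO and 0.52 in WT libraries, against 0.01 over all tested genes in each. By the interaction 0 of 9 ligands were called by edgeR, DESeq2 or limma-voom, and edgeR called 0% of tested genes. At an unadjusted p under 0.05 there were 2 ligands, Cd40lg and Tnfsf14, against 10.1% of tested genes. So for no ligand was the difference between populations shown to differ between genotypes.

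**Figure D3:**
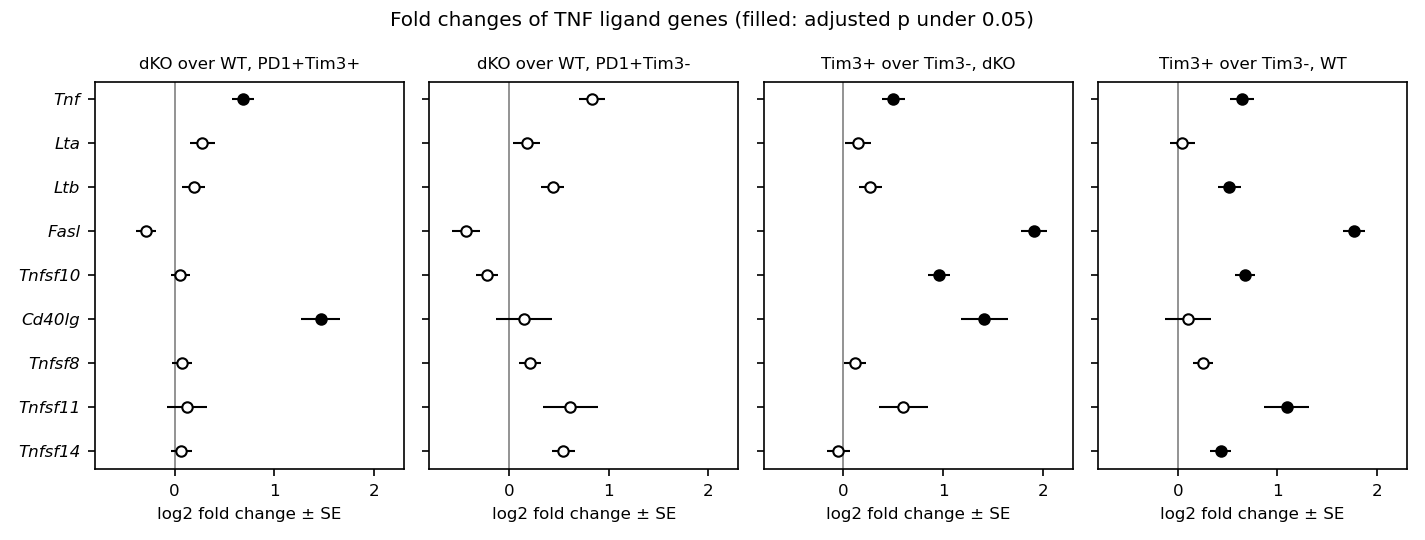
Log2 fold change with its standard error for each of the 9 ligands in the 4 contrasts, with filled markers for an adjusted p under 0.05. Fasl stands at 1.91 in dKO and 1.77 in WT for PD1+Tim3+ over PD1+Tim3-, and Cd40lg at 1.47 for dKO over WT in PD1+Tim3+ cells.

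The plot of fold changes sets the death ligands, whose calls are between populations, beside Cd40lg, whose called differences both involve the dKO PD1+Tim3+ libraries. Levels were also compared between genes after division by the summed exon length (CPM per kb). How counts scale with length is not known, since the library preparation was not given in the sources used here. Ltb was highest in every group, at 245 ± 12.2 CPM per kb in dKO PD1+Tim3+, 214 ± 2.58 in WT PD1+Tim3+, 203 ± 4.85 in dKO PD1+Tim3- and 150 ± 12.97 in WT PD1+Tim3- libraries (SD, n = 2 each). Lta took the second place in 3 of the groups and the third in WT PD1+Tim3+, with 30.6 to 38.5 CPM per kb. Cd40lg and Tnfsf11 filled the last 2 places in every group. Fasl changed its place between populations. It took the fourth place in dKO PD1+Tim3+, at 35.4 ± 0.0795 CPM per kb, and the second place in WT PD1+Tim3+, at 43.2 ± 0.294. It took the sixth place in both PD1+Tim3- groups, at 9.41 ± 0.0996 in dKO and 12.8 ± 1.64 in WT libraries. Tnf had 38.2 ± 1.17 CPM per kb in dKO PD1+Tim3+ libraries, where its range overlapped that of Lta, and 23.8 ± 0.653 in WT PD1+Tim3+ libraries, where it overlapped Tnfsf14. It had 27.0 ± 0.108 in dKO PD1+Tim3- and 15.3 ± 1.99 in WT PD1+Tim3- libraries, the last overlapping Tnfsf8. Tnfsf11 and Cd40lg overlapped in dKO PD1+Tim3- libraries, and the other neighbours in the order did not. Fasl also overlapped genes that were not its neighbours. In dKO PD1+Tim3+ libraries its range of 35.37 to 35.48 CPM per kb lay within that of Lta, 35.13 to 41.81. In WT PD1+Tim3- libraries its range of 11.60 to 13.91 met that of Tnf, 13.88 to 16.70.

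**Figure D4:**
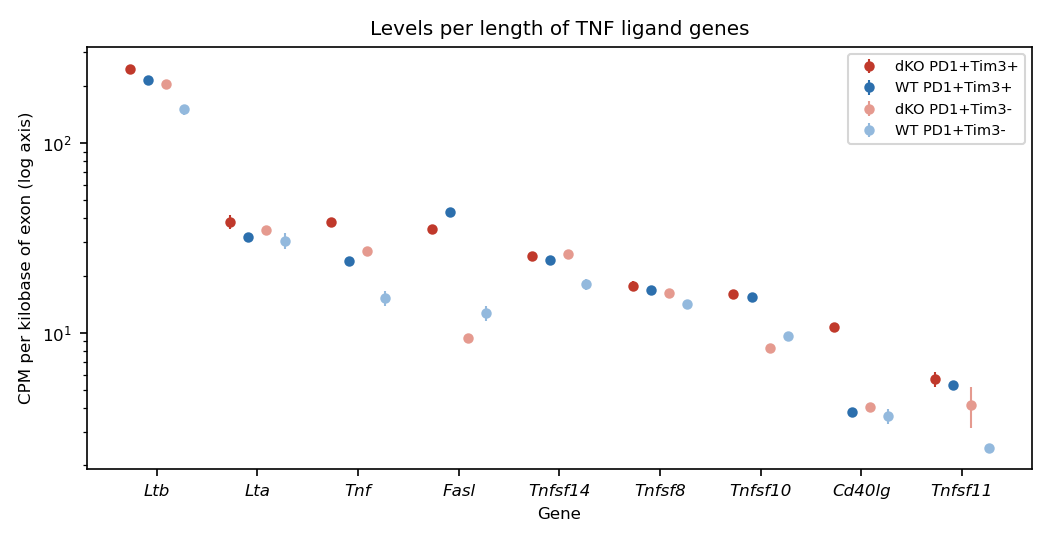
CPM per kb of exon for each ligand in the 4 groups on a log axis, with a point at each group mean and a bar from the lower to the higher library. Ltb lies highest in all groups, at mean levels of 150 to 245 CPM per kb, and the order below it differs between the PD1+Tim3+ and PD1+Tim3- groups, with Fasl at 35.4 and 43.2 CPM per kb in PD1+Tim3+ against 9.41 and 12.8 in PD1+Tim3- (dKO and WT in each).

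Across the 8 libraries, log2 CPM of Fasl and Tnfsf10 were the most alike of the ligand pairs, at Pearson r 0.98, followed by Tnf and Ltb at 0.95. The neighbours Tnf and Lta were at 0.69, and Tnf and Fasl at 0.44. These values describe libraries that share group and scaling, and they carry no test. The 3 genes most alike in pattern over all tested genes, by the same measure, were Arsb, Gzmb and Entpd1 for Fasl (0.997, 0.996 and 0.996), of which Gzmb encodes the killing protease granzyme B and Entpd1 the ectoenzyme CD39. For Ltb they were Nckap1, Icam1 and Dusp2 (0.99 each), of which Icam1 encodes an adhesion molecule and Dusp2 a MAP kinase phosphatase. For Tnf they were Rxra, Trim36 and Rgcc (0.98 each), of which Rxra encodes a retinoid receptor. Tnfsf10 was closest to Gm35037, 2900026A02Rik and Rora (0.99 each), Tnfsf11 to Tmem128, Gm29721 and Mmadhc (0.99, 0.98 and 0.98), Cd40lg to Vamp8, 5830411N06Rik and Cks2 (0.96, 0.96 and 0.95) and Tnfsf14 to Pomt1, Cd83 and Foxp4 (0.96, 0.95 and 0.95).

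Of 9 other ligands of the family, 6 were in the table and 2 passed the filter, Tnfsf4 (OX40 ligand) and Tnfsf9 (4-1BB ligand). Tnfsf4 had 34 and 27 counts in dKO PD1+Tim3+ against 7 and 0 in dKO PD1+Tim3- libraries, and 61 and 115 counts in WT PD1+Tim3+ against 19 and 10 in WT PD1+Tim3- libraries. Like Fasl it rose in PD1+Tim3+ cells of both genotypes, by 2.58 ± 0.54 (adjusted p = 0.0163) in dKO, where 1 library was at 0, and by 1.89 ± 0.34 (adjusted p = 0.00482) in WT. Tnfsf9 had 24.8 and 13.1 CPM in dKO PD1+Tim3+ against 10.0 and 8.998 CPM in WT PD1+Tim3+ libraries, and was not called in any contrast.

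Receptors of the family were measured in the same T cells. Of 27 listed, 18 passed the filter. In dKO over WT PD1+Tim3+ libraries 1 fell and 0 rose. That was Tnfrsf9, the co-stimulatory receptor 4-1BB, at 185 ± 20.3 CPM in dKO against 296 ± 11.4 CPM in WT libraries (-0.68 ± 0.12, adjusted p = 0.0303). In PD1+Tim3- cells 0 of 18 were called. At an unadjusted p under 0.05 there were 5 of 18 in PD1+Tim3+ cells, against 12.0% of all tested genes, and 3 of 18 in PD1+Tim3- cells, against 8.27%. Between populations 1 of 18 receptors rose in dKO, where 5.21% of all tested genes rose, and 5 of 18 rose in WT libraries, where 8.25% rose, and 0 fell in either. Tnfrsf1b, the TNF receptor of lymphocytes, rose in both, to 77.1 ± 8.50 CPM in dKO PD1+Tim3+ against 52.2 ± 1.90 CPM in dKO PD1+Tim3- (0.57 ± 0.12, adjusted p = 0.0157), and to 92.3 ± 2.19 CPM in WT PD1+Tim3+ against 59.6 ± 2.43 CPM in WT PD1+Tim3- libraries (0.63 ± 0.11, adjusted p = 0.00407). The other 4 that rose in WT were the co-stimulatory receptors Tnfrsf9, Tnfrsf18 (GITR) and Tnfrsf4 (OX40) and the death-domain receptor Tnfrsf25, by 0.46, 0.53, 0.74 and 1.03 on the log2 scale. Over all 8 libraries together Cd40 had 1 count, Ltbr 2, Tnfrsf8 (CD30) 24 and Tnfrsf11a (RANK) 69, while Fas had 1197 and Tnfrsf14 (HVEM) 1070.

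Of 24 adaptors and signalling proteins tested, 0 were called between genotypes in either population. An unadjusted p under 0.05 held for 1 in PD1+Tim3+ cells, against 12.0% of tested genes, and 0 in PD1+Tim3- cells, against 8.27%. Ikbkb, an activating kinase of NF-kappaB, fell in PD1+Tim3+ cells of both genotypes (-0.61 ± 0.13, adjusted p = 0.0173 in dKO and -0.42 ± 0.12, adjusted p = 0.0322 in WT), and Tradd, an adaptor of TNF receptor 1, rose in WT (0.60 ± 0.19, adjusted p = 0.0470). Of 9 genes of shedding and membrane release, 2 rose and 1 fell in each population contrast. Of all tested genes 5.21% rose and 4.72% fell in dKO, and 8.25% rose and 8.76% fell in WT libraries. Furin, the protease that activates ADAM sheddases, rose in both (0.83 ± 0.12 in dKO and 0.78 ± 0.12 in WT), and Rhbdf2, a partner of the TNF sheddase ADAM17, fell in both (-1.09 ± 0.27 in dKO and -1.35 ± 0.26 in WT). Replicates differed widely for Rhbdf2. It had 188 and 284 CPM in dKO PD1+Tim3+ against 450 and 552 CPM in dKO PD1+Tim3- libraries. In WT it had 219 and 242 CPM in PD1+Tim3+ against 762 and 408 CPM in PD1+Tim3- libraries. The second riser was Vamp8 in dKO (0.50 ± 0.11) and Sppl2b in WT (1.00 ± 0.25). Between genotypes 0 of the 9 were called. At an unadjusted p under 0.05 there were 2 of 9 in PD1+Tim3+ cells, where 12.0% of all tested genes passed, and 1 of 9 in PD1+Tim3- cells, where 8.27% passed.

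Among 11 genes of cytokine mRNA decay, 0 were called between genotypes. An unadjusted p under 0.05 held for 1 in PD1+Tim3+ cells, against 12.0% of tested genes, and 4 in PD1+Tim3- cells, against 8.27%. Between populations Hnrnpll, an RNA-binding protein best known in splicing, rose in both genotypes (1.00 ± 0.17, adjusted p = 0.00688 in dKO and 0.90 ± 0.15, adjusted p = 0.00403 in WT). In WT Zc3h12a, the RNase Regnase-1, rose by 0.48 ± 0.13 and its relative Zc3h12d fell by 0.46 on the log2 scale. Among 22 transcription factors known to act on ligand genes, Eomes, a T-box factor of effector and exhausted cells, was the 1 called between genotypes. It had 31.0 ± 5.94 CPM in dKO PD1+Tim3+ against 56.7 ± 1.27 CPM in WT PD1+Tim3+ libraries (-0.87 ± 0.14, adjusted p = 0.0183). At an unadjusted p under 0.05 there were 8 of 22 factors in PD1+Tim3+ cells, against 12.0% of all tested genes, and 10 of 22 in PD1+Tim3- cells, against 8.27%. Between populations 1 of 22 factors rose and 5 fell in dKO (Fosb rose, and Egr2, Egr3, Jun, Tcf7 and Tox fell), and 3 rose and 3 fell in WT (Fosb, Irf4 and Tbx21 rose, and Egr3, Tcf7 and Tox fell). Over all tested genes 5.21% rose and 4.72% fell in dKO, and 8.25% rose and 8.76% fell in WT libraries. Tcf7 and Tox, factors of the less differentiated and the exhausted states, fell by 0.87 and 0.81 on the log2 scale in dKO and by 0.80 and 0.65 in WT libraries.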

How the data were processed

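The deposited table holds whole-number counts per gene symbol, made by the authors for 8 libraries of sorted CD8 T cells, 2 per group. Per the submitters' processing notes, mm10, cutadapt 1.18 and Bowtie2 2.2.5 were used. Which counting tool, annotation, strand setting and library preparation they used was not given in the sources used here, and reads of overlapping genes cannot be told apart by strand. A last row without a gene name equals the column totals and was left out. Groups came from the labels; the PD1+Tim3- columns name PD1 only and were assigned because the Tim3+ columns are named separately.

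Counts were tested with the edgeR 4.0.16 quasi-likelihood F test in R 4.3.3, with TMM scaling and the default low-count filter (minimum count 10, total 15), in a fit of all 8 libraries (4 groups, 4 residual degrees of freedom). Calls need a Benjamini-Hochberg adjusted p under 0.05 over all 13073 genes. Standard errors of fold changes were derived from the F statistic. CPM uses TMM-scaled sizes. DESeq2 1.42.0 and limma-voom (limma 3.58.1), other scaling, filters, spread estimates, subsets and left-out libraries were alternatives. The pipeline was also run on simulated counts with the same spread for every gene and library. That run checks the code and does not measure error rates in these data, whose spread was uneven. Replicates differed beyond sampling noise (chi-square per gene 3.38 to 17.98) and each counts as a sample. The p-values rest on the spread of 2 libraries per group, pooled over the 4 groups. The fit also draws each gene's spread toward that of other genes, which adds to the 4 residual degrees of freedom.

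The 9 ligands and the other lists were chosen with earlier results of these data known. All ligands are named, and from each list the genes called in a contrast, at most 6 by smallest p. For each ligand called in a contrast, the 3 genes with the highest Pearson r of log2 CPM (prior count 2) are named. Coordinates and exon lengths are from GENCODE vM21.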

Additional observations from a re-analysis of the deposited data

Results flagged for a closer look

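Tnfsf14 had population differences of opposite sign in the genotypes. The log2 fold change of PD1+Tim3+ over PD1+Tim3- was -0.048 in dKO libraries, where both PD1+Tim3+ libraries were below both PD1+Tim3- libraries, and 0.43 in WT libraries, where both were above. The difference of these, the interaction, was -0.48 ± 0.16 in edgeR's fit of all genes (unadjusted p = 0.0107, adjusted p = 0.336), and so did not pass the threshold.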

How the results depend on the processing

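Each fold change and count was recomputed with 1 choice changed at a time. Of 693 recomputed fold changes of ligands, 651 kept their direction and side of the threshold, 31 lost and 4 gained a call, and 7 changed sign. The sign changes all came from leaving out a library and touched values near 0, with ranges of -0.038 to 0.22 for Cd40lg and -0.075 to 0.20 for Lta between populations in WT, -0.060 to 0.23 for the Lta interaction, and -0.0035 to 0.10 for Tnfsf10, -0.0089 to 0.26 for Tnfsf11 and -0.0070 to 0.15 for Tnfsf8 between genotypes in PD1+Tim3+ cells. The number of ligands called between genotypes in PD1+Tim3- cells was 1 without the filter and 1 with a robust spread estimate, and 0 to 1 without a replicate. In PD1+Tim3+ cells it was 1 by DESeq2, 1 in a fit of the 4 libraries and 1 with the replicate block, and 0 to 2 without a replicate. Between populations it was 2 to 4 in dKO and 2 to 6 in WT without a replicate.

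Counts of all genes called between genotypes in PD1+Tim3- cells (6) became 232 without the filter, 0 by limma-voom, 56 with a robust spread estimate, 3 in a fit of the 4 libraries, 0 with the replicate block and 0 to 31 without a replicate. In PD1+Tim3+ cells (82) they became 486 without the filter, 38 in a fit of the 4 libraries, 40 with the replicate block and 6 to 413 without a replicate. For the interaction (0) they became 331 without the filter, 109 by DESeq2, 4 with a robust spread estimate and 0 to 323 without a replicate. Between populations, dKO libraries (1298) gave 716 with the replicate block and 132 to 1392 without a replicate, and WT libraries (2223) gave 1314 by DESeq2 and 433 to 2773 without a replicate. The causes were not tested, apart from fewer libraries in the fits that leave some out.

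The labels do not say that a replicate number marks a mouse. Deviations of same-numbered libraries correlated at -0.41 to 0.07 across 9048 genes. Between the populations of a genotype the values were -0.113 in dKO and -0.12 in WT. The numbers were not taken as pairs, but these values cannot show whether libraries share a mouse. With the block the Tnf calls ended in dKO over WT PD1+Tim3+ cells (adjusted p = 0.0612) and between populations in dKO (0.0548, and 0.0547 with the block within genotype), and with the block within genotype the Tnfsf14 call in WT ended (0.0524). A library with few counts, such as dKO PD1+Tim3- replicate 2 with 10 counts for Cd40lg, limits what can be detected.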
